A study of Rattus norvegicus with 4 samples.

Results

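The genes described here encode the sterol regulatory element-binding proteins (SREBPs), the proteins that control their release from the endoplasmic reticulum, and a pair of DNA-binding partners. They were chosen by name: all probe sets annotated to exactly Srebf1, Srebf2, Scap, Insig1, Insig2, Mbtps1, Nfya or Sp1. All 8 were on the array, among 14217 genes that could be named, with 17 probe sets between them. The cells were primary granulosa cells, the hormone-producing cells of the ovarian follicle, from estradiol-treated female Sprague-Dawley rats of 23 to 25 days. All groups were infected with an adenovirus for 4 h and then cultured for 24 h in serum-free medium. FOXOA3 FSH cells carried a constitutively active FOXO1, FOXOA3-mDBD FSH cells the same protein with a mutated DNA-binding domain, and GFP FSH cells green fluorescent protein, each exposed to FSH, follicle-stimulating hormone, at 100 ng/ml. GFP vehicle cells carried green fluorescent protein and received no hormone. Each group was a single array, so no difference below has a replicate check and no p-value was computed. Uninfected cells and FOXO1 vectors without FSH were not among the groups, and whether the RNA of an array was pooled from several cultures is not given in the sources used here.

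SREBPs are made as precursors in the membrane of the endoplasmic reticulum. When sterols are scarce, Scap escorts them to the Golgi, where the site-1 protease (Mbtps1) and the site-2 protease cut them and free a transcription factor that activates genes of cholesterol and fatty acid synthesis. When sterols are plentiful, the Insig proteins hold the Scap complex in the endoplasmic reticulum. On sterol-responsive promoters SREBPs act with NF-Y, whose regulatory subunit is Nfya, and with Sp1. In granulosa cells cholesterol is the raw material of steroid hormones. The arrays measured messenger RNA, so precursor cleavage and protein levels were not observed.

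Values are the authors' MAS5 signals, a linear intensity per probe set. A floor was set at the median signal of all rat probe sets, 100.5, and a fold is given as "at least" where the dimmer signal lay under it. A gene with several probe sets is counted by its brightest one, and a fold of 2 is the threshold for counts. Of the 17 probe sets, 10 were above the floor on all 4 arrays, 5 on some arrays and 2 on none, and each gene had at least 1 that was above it throughout.

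The arrays differed in ways that the group labels do not give. Poly-A spike transcripts, bacterial RNAs added as a labelling control, averaged (geometric mean) 22.6 on FOXOA3 FSH, 539.4 on FOXOA3-mDBD FSH, 394.6 on GFP FSH and 21.4 on GFP vehicle. FOXOA3 FSH and GFP vehicle thus form a spike-low pair of arrays, and FOXOA3-mDBD FSH and GFP FSH a spike-high pair. The 3' to 5' signal ratio of beta-actin was 9.79, 10.7, 12.0 and 5.15 in the order FOXOA3 FSH, FOXOA3-mDBD FSH, GFP FSH and GFP vehicle, and that of Gapdh was 2.84, 3.15, 2.46 and 2.32. The ratios ranked the arrays differently, with GFP FSH highest by beta-actin and FOXOA3-mDBD FSH highest by Gapdh. Of 10 granulosa markers on the array, 9 or 10 were above the floor in each group. Their summed signal was 38155.6 on FOXOA3 FSH, 23135.7 on FOXOA3-mDBD FSH, 94641 on GFP FSH and 32538.3 on GFP vehicle. Foxl2 and Gata4, transcription factors on this list, were lowest on FOXOA3-mDBD FSH, at 994.1 and 358.1, as were Inha, Amh, Amhr2 and Nr5a1. Inhba, Nr5a2, Cyp19a1 and Hsd17b1 were instead lowest on GFP vehicle. The theca markers Cyp17a1 and Insl3 and the leukocyte markers Ptprc, Cd68, Itgam and Cd3e stayed at or under the floor on all arrays. The 8 theca and stroma markers summed to 24186.8 on FOXOA3 FSH, 1406.5 on FOXOA3-mDBD FSH, 2149.4 on GFP FSH and 16456.1 on GFP vehicle. The sum was thus high on the spike-low pair, but through different genes. Dcn (12504.1) and Col3a1 (7556.3) made up most of it for FOXOA3 FSH, Tagln (9167.1) and Acta2 (3710.6) for GFP vehicle. Each of these genes was higher on both spike-low arrays, though Dcn only slightly without hormone (624.1, against 485.2 for GFP FSH). Lum did not follow the split, with 98.8 for FOXOA3 FSH but 215.8 for GFP FSH. The 6 leukocyte markers summed to 2879.3, 1264.9, 958.6 and 2465.8 in the order FOXOA3 FSH, FOXOA3-mDBD FSH, GFP FSH and GFP vehicle, mostly from Cd14. Among 4 endothelial markers Pecam1 and Vwf were under the floor on all arrays, and the sum ran from 267.4 to 496.9. Kdr was above the floor on all arrays (123.3 to 376.3), and Tek only on the FOXO1 arrays (172.9 and 212.3). Among 5 oocyte markers Bmp15 and Zp1 were under the floor throughout, and the sum ran from 442.7 on GFP vehicle to 1200 on FOXOA3-mDBD FSH. Gdf9 (130.3 to 477.5) and Zp2 (249.3 to 622.1) were above it on all arrays. Zp3 was above it on FOXOA3-mDBD FSH (191.3) and GFP FSH (158.3). The part of these differences in the results below was not tested. Fewer cells of a type, less RNA per cell and a change of the marker genes themselves with hormone or vector cannot be told apart.

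Srebf1 encodes SREBP-1, which favours genes of fatty acid synthesis. The brightest probe set of Srebf1, 1388426_at, gave 634.4 on FOXOA3 FSH, 285.3 on FOXOA3-mDBD FSH, 2068.4 on GFP FSH and 856.3 on GFP vehicle. The signal was highest with FSH and the control vector and lowest with the DNA-binding mutant. It was 2.42-fold higher on GFP FSH than on GFP vehicle, and 4.01% of the 9578 measured genes had a larger ratio. It was 3.26-fold lower on FOXOA3 FSH than on GFP FSH, with 1.20% of genes lower still, and 7.25-fold lower on FOXOA3-mDBD FSH, with 0.544% of genes lower still. These comparisons share the GFP FSH array, so they are not independent.

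The other Srebf1 probe set, 1371104_at, read 207.2 on FOXOA3 FSH, 63.5 on FOXOA3-mDBD FSH, 227.3 on GFP FSH and 300.8 on GFP vehicle. It was thus highest without FSH, and both probe sets were lowest with the mutant. Its log2 ratio was -0.40 for GFP FSH against GFP vehicle, opposite in sign to that of the brightest probe set. For FOXOA3 FSH against GFP FSH it was -0.13. For FOXOA3 FSH against GFP vehicle the log2 ratios were -0.43 by the brightest probe set and -0.54 by the other. For FOXOA3-mDBD FSH against GFP FSH it was at least 2.26-fold lower. The mean of both probe sets ended the 2-fold calls of Srebf1 with FSH (log2 ratio 0.43) and with FOXOA3 (-0.92), but not that with the mutant (-2.02). Srebf1 is known to have alternative start sites, which give SREBP-1a from the upstream and SREBP-1c from the downstream site. Which transcripts each probe set reads is not given in the sources used here.

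Srebf2 encodes SREBP-2, which favours genes of cholesterol synthesis. The brightest Srebf2 probe set gave 1597.1 on FOXOA3 FSH, 562.8 on FOXOA3-mDBD FSH, 1738 on GFP FSH and 1781.1 on GFP vehicle. Signals on all arrays but the mutant one lay within 1.12-fold of each other, with log2 ratios of -0.04 for FSH and -0.12 for FOXOA3. With the mutant Srebf2 was 3.09-fold lower than on GFP FSH and 3.16-fold lower than on GFP vehicle. The other probe set had signals of 3.0 to 31.7 and gave no ratio. A mean that took it in at the floor ended both calls, at log2 ratios of -0.81 and -0.83.

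Scap encodes the escort protein that senses cholesterol. Its brightest probe set read 1608.3 on FOXOA3 FSH, 673.7 on FOXOA3-mDBD FSH, 1282.8 on GFP FSH and 1484.1 on GFP vehicle. The log2 ratio was -0.21 for FSH against vehicle, 0.33 for FOXOA3 FSH against GFP FSH and -0.93 for FOXOA3-mDBD FSH against GFP FSH, each under 2-fold. Against GFP vehicle the mutant array was 2.20-fold lower, a call that ended with centring, loess or the mean of probe sets (log2 ratio as small as -0.57). The other probe set was above the floor only on FOXOA3 FSH, at 127.5.

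Mbtps1, the protease that makes the first cut, had a single probe set with signals of 2302.8 on FOXOA3 FSH, 1048.1 on FOXOA3-mDBD FSH, 2135.3 on GFP FSH and 2783.7 on GFP vehicle. As for Srebf2 and Scap, the mutant array was the lowest. Mbtps1 was 2.04-fold lower there than on GFP FSH, just past the threshold, and 2.66-fold lower than on GFP vehicle. The first of these calls ended with quantile normalization, centring or loess (log2 ratio as small as -0.86). GFP FSH against GFP vehicle was 1.30-fold lower, and FOXOA3 FSH against GFP FSH 1.08-fold higher.

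Insig1 encodes a retention protein, and its gene is itself known as an SREBP target. Its single probe set read 3166.6 on FOXOA3 FSH, 2553 on FOXOA3-mDBD FSH, 9856.7 on GFP FSH and 4492.4 on GFP vehicle. GFP FSH stood above the other arrays, and both FOXO1 arrays lay under GFP vehicle. Insig1 was 2.19-fold higher with FSH, 3.11-fold lower with FOXOA3 than with GFP under FSH, and 3.86-fold lower with the mutant. The hormone ratio fell under 2-fold with quantile normalization or loess, where the log2 ratio was as low as 0.85 in place of 1.13. Between FOXOA3 FSH and FOXOA3-mDBD FSH the log2 ratio of Insig1 was 0.31.

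Insig2, the paralog of Insig1, gave a different order of arrays. Its brightest probe set read 1268.2 on FOXOA3 FSH, 1734.6 on FOXOA3-mDBD FSH, 1375.3 on GFP FSH and 855 on GFP vehicle, and the other one 586.2, 818.6, 411.7 and 294.4 in the same order. Both were highest with the mutant and lowest without hormone. For FOXOA3-mDBD FSH against GFP vehicle they were 2.03-fold and 2.78-fold higher, which made Insig2 the only member that was 2-fold higher there. For GFP FSH against GFP vehicle the log2 ratios were 0.69 and 0.48. For FOXOA3 FSH against GFP FSH the probe sets pointed in opposite directions, with log2 ratios of -0.12 and 0.51. For FOXOA3-mDBD FSH against GFP FSH the log2 ratio was 0.33 by the brightest probe set and 0.99 by the other, against -1.95 for Insig1 on the same arrays.

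Nfya had a signal of 1791.7 on FOXOA3 FSH, 583.6 on FOXOA3-mDBD FSH, 601.4 on GFP FSH and 1798.9 on GFP vehicle by its brightest probe set. The values formed a pair of levels, high on the spike-low arrays and low on the spike-high arrays. Nfya was 2.99-fold lower on GFP FSH than on GFP vehicle and 2.98-fold higher on FOXOA3 FSH than on GFP FSH, and both comparisons cross the spike state. Within a spike state it was 1.00-fold for FOXOA3 FSH against GFP vehicle and 1.03-fold lower for FOXOA3-mDBD FSH against GFP FSH. Hormone, vector and spike state cannot be told apart for this gene. The other probe set was above the floor only on GFP vehicle, at 101.3, and a mean that took it in ended the 2-fold calls, at log2 ratios of -0.80 for FSH and 0.79 for FOXOA3.

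Sp1, a zinc finger factor that binds GC-rich boxes, had 5 probe sets, which did not give the same picture. The brightest, 1371880_at, read 1375.3 on FOXOA3 FSH, 989.9 on FOXOA3-mDBD FSH, 2292.5 on GFP FSH and 2146.4 on GFP vehicle. The next, 1392180_at, read 857.5, 632.3, 1004.8 and 1301.7 in that order. By both of them, the FOXO1 arrays lay under the GFP arrays, and the mutant was lowest. For FOXOA3-mDBD FSH against GFP FSH the brightest was 2.32-fold lower and the next 1.59-fold lower. A dimmer probe set, 1379384_at, read 206.2, 183.5, 88.6 and 224.6, and was at least 1.83-fold higher in the same comparison. The mean over the probe sets above the floor ended the 2-fold call of Sp1 there, with a log2 ratio of -0.37. For GFP FSH against GFP vehicle the dimmer probe set was at least 2.23-fold lower, where the brightest had a log2 ratio of 0.10. Of the remaining probe sets, 1392631_at lay between 78.8 and 152.9 and 1369247_at stayed under the floor, between 23.0 and 52.1.

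**Figure D1:**
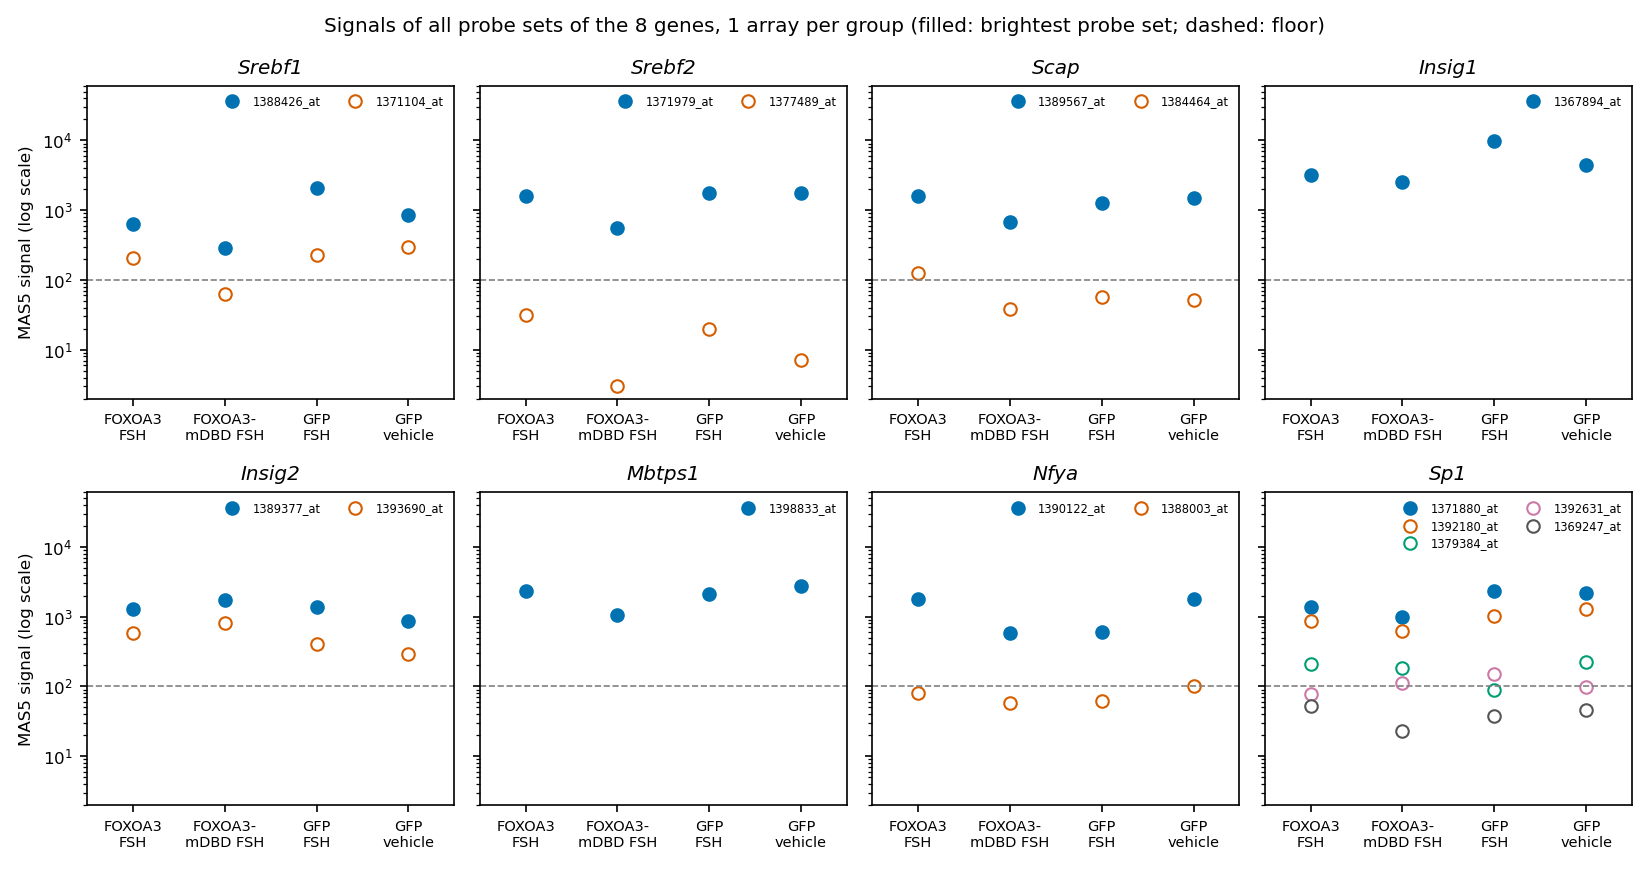
MAS5 signal (log scale) of each probe set of the 8 genes on the 4 arrays, with 1 array per group. Filled points are the brightest probe set of a gene, open points the others, and the dashed line is the floor of 100.5. Insig1 and the brightest Srebf1 probe set peak on GFP FSH, and Nfya sits at a pair of levels, 1791.7 and 1798.9 on the spike-low arrays and 583.6 and 601.4 on the spike-high arrays.

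Promoter sequences are shown for Srebf1 and Insig1, whose brightest probe sets were both higher with FSH and lower with FOXOA3 and with the mutant. They are RefSeq promoters of the rat assembly GRCr8, from 250 bases before the annotated start to 50 bases from it, given 5' to 3' on the strand of the gene. Capitals mark the motifs found: the NF-Y box CCAAT, the Sp box GGGCGG and the E-box CACGTG, each on either strand. Srebf1 upstream lies at chr10:45529115-45529414, Srebf1 downstream at chr10:45518961-45519260 and Insig1 at chr4:8057720-8058019, all on the minus strand.
Srebf1 upstream: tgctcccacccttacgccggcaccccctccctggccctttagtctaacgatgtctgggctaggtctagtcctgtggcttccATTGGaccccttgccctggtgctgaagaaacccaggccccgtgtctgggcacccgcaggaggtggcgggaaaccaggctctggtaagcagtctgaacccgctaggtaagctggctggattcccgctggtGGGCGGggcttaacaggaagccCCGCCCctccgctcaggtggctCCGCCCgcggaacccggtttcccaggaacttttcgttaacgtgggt
Srebf1 downstream: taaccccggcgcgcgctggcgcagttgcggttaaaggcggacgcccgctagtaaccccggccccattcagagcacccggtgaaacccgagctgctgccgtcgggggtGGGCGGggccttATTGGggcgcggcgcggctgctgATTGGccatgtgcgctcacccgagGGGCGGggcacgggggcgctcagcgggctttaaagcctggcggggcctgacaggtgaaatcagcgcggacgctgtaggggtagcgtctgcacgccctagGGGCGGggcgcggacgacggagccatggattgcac
Insig1: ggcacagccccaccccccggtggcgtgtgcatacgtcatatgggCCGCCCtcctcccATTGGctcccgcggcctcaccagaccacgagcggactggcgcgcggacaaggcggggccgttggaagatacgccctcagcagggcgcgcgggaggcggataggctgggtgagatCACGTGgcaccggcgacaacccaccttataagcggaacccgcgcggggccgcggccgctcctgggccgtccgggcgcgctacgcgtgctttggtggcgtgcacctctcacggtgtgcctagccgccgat

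All 8 genes matched the promoter table, with 9 promoters, since Srebf1 had 2. The upstream Srebf1 promoter held 1 NF-Y box and 3 Sp boxes, the downstream one 2 NF-Y boxes and 3 Sp boxes, and that of Insig1 held 1 of each and 1 E-box. In the downstream promoter of Srebf1 the NF-Y boxes began at -131 and -108, counted with the start base as 0, between a pair of Sp boxes at -143 and -84. Over the 9 promoters, the Sp box was in 8 and the NF-Y box in 7, and Insig2 had an NF-Y box but no Sp box. Of all 33469 rat promoters of this length, 33.1% held the Sp box and 37.5% the NF-Y box. The promoter of Insig2 had a GC content of 42.0% and the others of 63.3% to 71.3%, a property that GC-rich motifs follow. The E-box was in the promoters of Insig1 and Scap and in 6.42% of all promoters. The FOXO element GTAAACA was found only in that of Mbtps1, against 3.78% of all promoters. The sterol element TCACNCCAC, in 1.12% of all promoters, and the cAMP element TGACGTCA, in 1.83%, were in none of the 9 windows. A match describes letters and is not a binding site. Only these exact letters were searched in these windows, so variant or more distant elements would be missed.

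**Figure D2:**
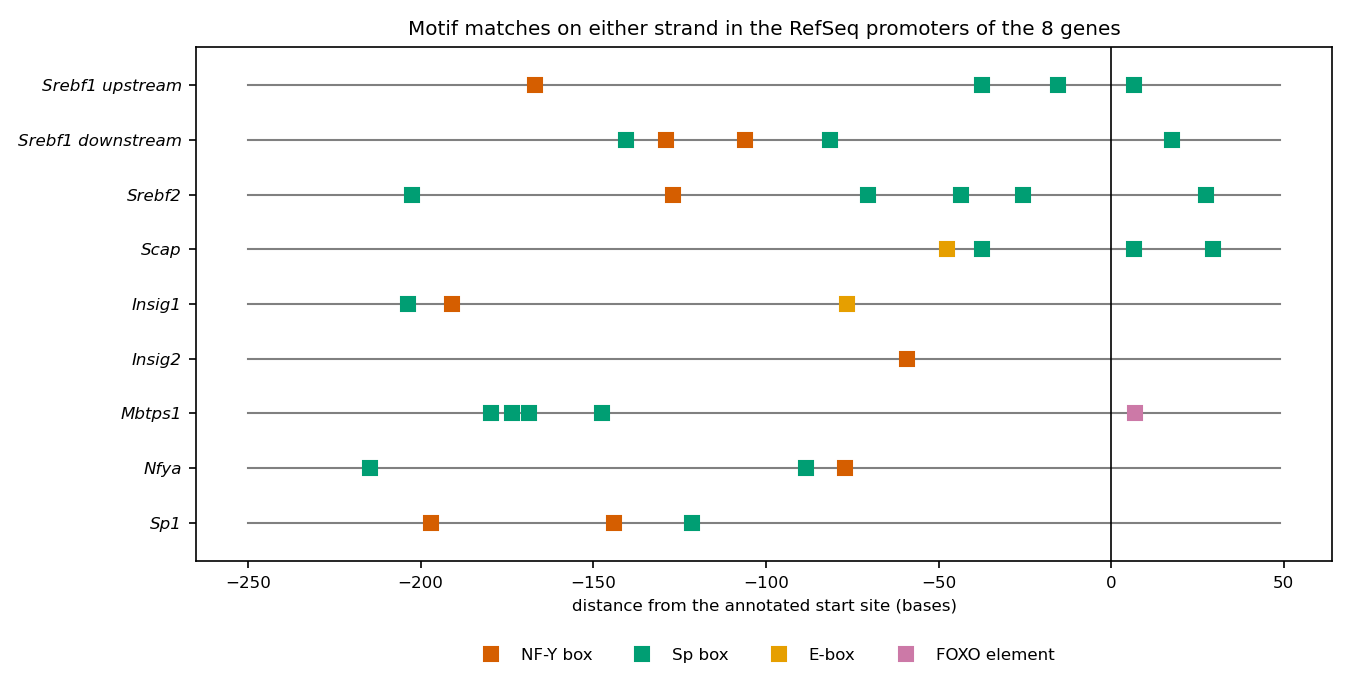
Positions of motif matches on either strand in the 9 promoters, in bases from the annotated start site. Sp boxes appear in 8 promoters and NF-Y boxes in 7, and the FOXO element appears only in Mbtps1.

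The response to the hormone is read from GFP FSH against GFP vehicle. Of the 8 genes, Srebf1 and Insig1 were 2-fold higher and Nfya was 2-fold lower, against 6.84% of all measured genes that were 2-fold higher and 11.1% that were 2-fold lower. The median log2 ratio of the 8 was 0.03, and that of all genes -0.00. The other SREBP processing genes, which cover the degradation of Insig, the carriers out of the endoplasmic reticulum and similar steps, counted 2 of 26 higher and 2 lower, around a median of 0.15. Tmem97, a sterol-regulated membrane protein of the endoplasmic reticulum and also counted among the targets below, was 3.92-fold higher, and Sec23b of the COPII coat 2.11-fold. Sec31a, another coat subunit, was 2.16-fold lower but dim, at 105.5 on GFP FSH, close to the floor, and 228.3 on GFP vehicle. Among other NF-Y, Sp and coactivator genes 0 of 16 were higher and 1 was lower, the retinoid receptor Rxrb at 2.47-fold. Rxrb read 321.5 on FOXOA3 FSH, 119.2 on FOXOA3-mDBD FSH, 137.5 on GFP FSH and 340.3 on GFP vehicle. These levels split by spike state, as for Nfya, and the lower ones are close to the floor. The Rxrb ratios given below share this limit. Of the known SREBP target genes, 24 of 31 were higher and 0 lower, and their median was 1.55. Among them the sterol ketoreductase Hsd17b7 had a signal of 7026.5 on GFP FSH, against 847.6 on GFP vehicle. This comparison crosses the spike state, and the 3' to 5' ratio was 12.0 on GFP FSH against 5.15 on GFP vehicle for beta-actin, and 2.46 against 2.32 for Gapdh.

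For FOXOA3 FSH against GFP FSH, Srebf1 and Insig1 were 2-fold lower and Nfya was 2-fold higher, and the other 5 genes were within 1.67-fold by their brightest probe sets. The dimmer Sp1 probe set 1379384_at was at least 2.05-fold higher, where the brightest was 1.67-fold lower. Over all genes 6.99% were 2-fold lower and 11.1% were 2-fold higher. The median of the 8 was -0.12 and that of all genes 0.04. Other SREBP processing genes counted 1 of 26 higher and 3 lower, around a median of -0.04. Tmem97 was 4.71-fold lower, Pgrmc1, a heme-binding membrane protein, was 2.19-fold lower, and Ube2g2, a ubiquitin-conjugating enzyme of protein degradation in the endoplasmic reticulum, was 2.42-fold higher. Of the NF-Y, Sp and coactivator genes 2 of 15 were higher and 0 lower. They were Atf6, a stress sensor that is also cut by the site-1 protease, at 2.43-fold, and Rxrb at 2.34-fold. Of 31 target genes 28 were lower and 1 higher, with a median of -1.82. The comparison shares its GFP FSH array with the one before and also crosses the spike state.

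With the DNA-binding mutant, Srebf2, Mbtps1 and Sp1 were past 2-fold beside Srebf1 and Insig1. For FOXOA3-mDBD FSH against GFP FSH, which lie in the same spike state, 5 of 8 were 2-fold lower (Srebf1, Srebf2, Insig1, Mbtps1 and Sp1) and 0 higher, with a median of -1.12. Over all genes 19.1% were 2-fold lower and 12.5% were 2-fold higher, and the median gene was at -0.16. With ratios centred on that gene, the numbers over all genes were 1465 lower and 1517 higher, in place of 1866 and 1221. Centring left 4 of the 8 past 2-fold, with Mbtps1 at a log2 ratio of -0.86. Other SREBP processing genes counted 2 of 26 higher and 1 lower, Tmem97 at 5.10-fold, around a median of -0.28. The higher ones were Fbxw7, the ubiquitin ligase subunit that targets nuclear SREBPs, at 2.88-fold, and Ube2g2 at 2.40-fold. Of the NF-Y, Sp and coactivator genes 2 of 14 were higher and 1 lower. The coactivator Crebbp and Atf6 were both 2.58-fold higher, and the Mediator subunit Med14 was 2.69-fold lower. Of 31 target genes 26 were lower and 0 higher, with a median of -2.15. The granulosa markers summed to 23135.7 on the mutant array, against 94641 on GFP FSH and 32538.3 on GFP vehicle. The largest signals on GFP FSH were those of Inha (29568.6), Inhba (25593.4), Cyp19a1 (13042.1) and Nr5a2 (10820.2). On GFP vehicle these genes read 9571.1, 10189.3, 35.0 and 2210.2, so the GFP FSH sum includes genes that were higher with the hormone.

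Setting FOXOA3 FSH against FOXOA3-mDBD FSH asks what differs between the FOXO1 forms. Srebf1, Srebf2, Scap, Mbtps1 and Nfya were 2-fold higher with FOXOA3, and 0 of the 8 were 2-fold lower. Over all genes 19.0% were 2-fold higher and 9.24% were 2-fold lower. The median of the 8 was 1.14, against 0.21 for all genes. With centring the 8 had 3 past 2-fold, as Srebf1 and Mbtps1 moved to log2 ratios of 0.95 and 0.93. The Srebf1 call also ended with quantile normalization, loess and a floor at the 75th percentile (0.23). Over all genes, centring gave 1315 higher and 1319 lower and loess 1034 and 1304, in place of 1913 and 932. The folds were 2.84 for Srebf2, 2.39 for Scap and 3.07 for Nfya. The mean of probe sets, those under the floor included, ended these calls too, at log2 ratios of 0.75 for Srebf2, 0.80 for Scap and 0.81 for Nfya. Of the other SREBP processing genes 2 of 26 were higher and 0 lower, and their median was -0.02. Of the target genes 4 of 31 were higher and 1 lower, and their median was 0.20. Syvn1, a ubiquitin ligase of the endoplasmic reticulum, was 2.70-fold higher and Sec24c of the COPII coat 2.07-fold. Of the NF-Y, Sp and coactivator genes 1 of 15 was higher, Rxrb at 2.70-fold. The comparison crosses the spike state.

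**Figure D3:**
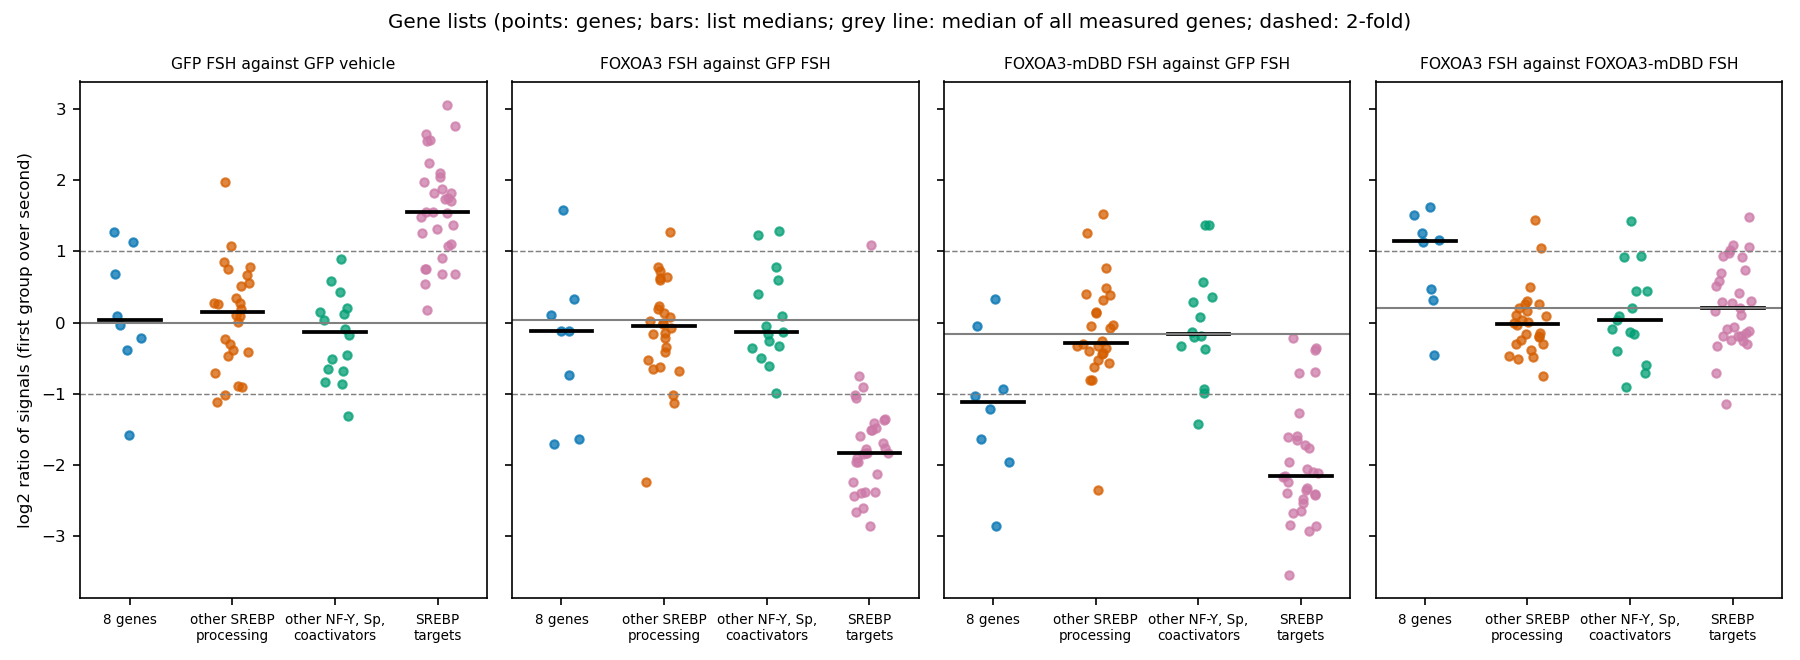
Log2 ratios of the 8 genes and of the other gene lists in 4 comparisons, with list medians as black bars and the median of all measured genes as a grey line. The target list lies at medians of 1.55, -1.82 and -2.15 in the first 3 comparisons, while the 8 genes are spread on both sides of the median of all genes with FSH and with FOXOA3.

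Against GFP vehicle the FOXO1 forms gave unlike counts. For FOXOA3 FSH, which shares the spike-low state with GFP vehicle, 0 of the 8 were past 2-fold, against 5.32% of all genes 2-fold higher and 4.01% 2-fold lower. The log2 ratios of the 8 lay between -0.64 for Sp1 and 0.57 for Insig2. None of 26 other processing genes and none of 16 NF-Y, Sp and coactivator genes passed 2-fold there either, and of 31 target genes 3 were higher and 1 lower. For FOXOA3-mDBD FSH, 6 of the 8 were 2-fold lower, Insig2 was 2-fold higher, and Insig1 had a log2 ratio of -0.82. The Sp1 call there ended with centring and with both means of probe sets (log2 ratio as small as -0.46). Over all genes 22.5% were 2-fold lower and 13.0% were 2-fold higher, and the median gene was at -0.17. The numbers over all genes were 2215 lower and 1280 higher, but 1794 and 1620 with centring and 1510 and 1649 with loess. Of 31 target genes 8 were lower and 2 higher, the desaturase Scd at 5.81-fold and the isomerase Idi1 at 3.65-fold. Of 26 other processing genes 3 were lower, Sec31a by at least 2.27-fold, Syvn1 2.27-fold and Sec24c 2.19-fold. Of 16 NF-Y, Sp and coactivator genes 3 were lower, Rxrb 2.85-fold, the Mediator subunit Med15 2.28-fold and the acetyltransferase Kat2a 2.11-fold. The median of the 8 was -1.27 and that of the targets -0.41. This comparison crosses the spike state.

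**Figure D4:**
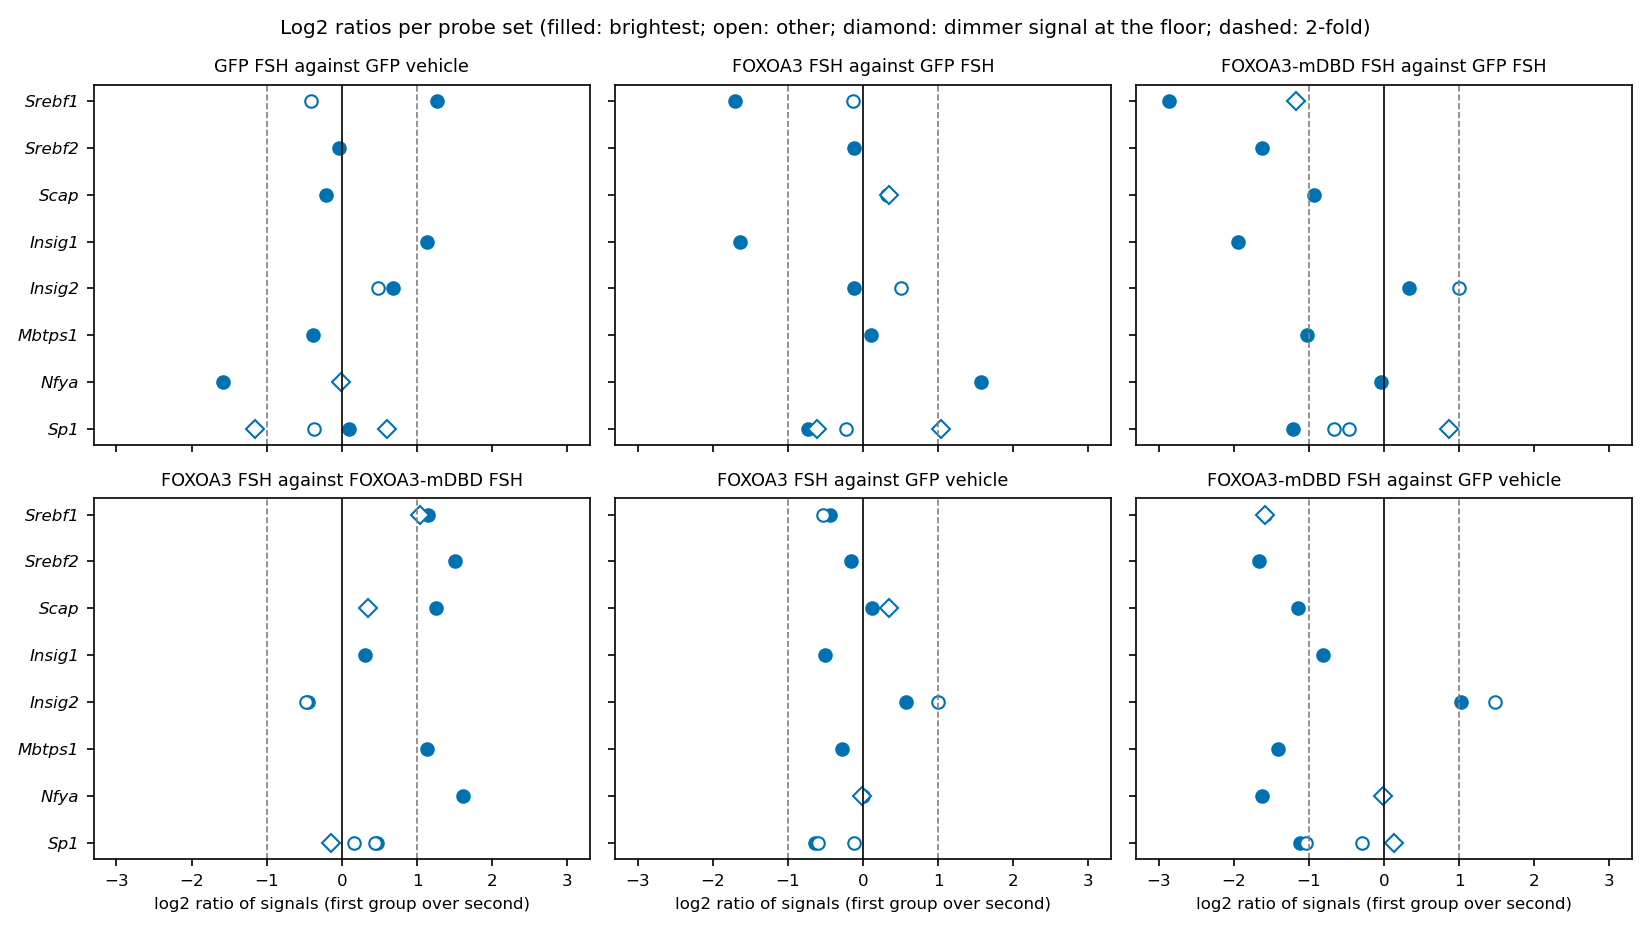
Log2 ratios per probe set in the 6 comparisons, first group over second, with the 2-fold threshold dashed. Filled points are the brightest probe sets, open points the others, and diamonds have the dimmer signal at the floor. All brightest probe sets lie within 2-fold for FOXOA3 FSH against GFP vehicle, and all but Insig1 lie past it for FOXOA3-mDBD FSH against GFP vehicle.

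Other genes with like patterns were sought for Srebf1, Insig1 and Nfya among 8112 other genes above the floor on all arrays. Likeness was the largest difference between the log2 ratios to GFP vehicle over the 3 FSH arrays, a description that rests on 4 arrays. Each gene was taken by its brightest probe set. The gene most like Srebf1 was Mvk, mevalonate kinase, with a largest difference of 0.11. The other Srebf1 probe set, 1371104_at, had a log2 ratio of -0.40 for GFP FSH against GFP vehicle, where Mvk had 1.31. Mvk had signals of 359.2 on FOXOA3 FSH, 169.6 on FOXOA3-mDBD FSH, 1292.4 on GFP FSH and 522.5 on GFP vehicle. Pcyt1a, which makes CDP-choline for membrane lipids, Crispld2, Borcs7 and Tspo, a cholesterol-binding protein of the outer mitochondrial membrane, followed at 0.18 to 0.26. The genes most like Insig1 were Pola2, a subunit of DNA polymerase alpha, at 0.15, the amino acid sensor kinase Eif2ak4 at 0.16, Dctpp1 and Spin2b at 0.19, and Fdps, farnesyl diphosphate synthase, at 0.22. Fdps read 5792.9, 4757.9, 20501.3 and 9545 on FOXOA3 FSH, FOXOA3-mDBD FSH, GFP FSH and GFP vehicle. Those most like Nfya were the translation factor Eif4b, Ppm1f, Retreg2, the lysosomal cystine transporter Ctns and Armc7, at 0.14 to 0.18.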

How the data were processed

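Expression in cultured rat granulosa cells was read on 4 rat genome arrays, 1 per group. The authors' deposited values are intensity values (MAS5 signal, linear scale), made with MAS5 per the submitters' processing notes. No version of it is given in the sources used here. MAS5 scales each array, and 2% trimmed means were 500.1 to 500.2, so no further scaling was applied. Such scaling hides differences in total RNA per cell, and MAS5 ratios of dim probe sets are noisy.

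Of 31099 probe sets, 57 were controls, 20826 had exactly 1 symbol in the platform annotation, 436 several and 9780 none; only the first were named. Signals were raised to a floor (100.5, the median over rat probe sets and arrays) and log2 was taken. A gene was measured in a comparison if the higher signal exceeded the floor. The brightest probe set by mean signal stood for its gene, and 2-fold was the threshold. The ratio step was tested on simulated arrays with known changes in bright genes, and the motif search on planted motifs. Dim probe sets and spike state were not part of these simulations. Promoters were searched on both strands with Python 3.11.15, and loess used statsmodels 0.14.6.

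The members, lists and tests were chosen with earlier results of these data known. All 8 members were named; from other lists, any of the 3 genes with the largest ratios in a comparison; and the 5 genes most like Srebf1, Insig1 and Nfya. Alternatives were other floors, a pseudocount of 16, quantile normalization, centring, loess, means of probe sets and a 1.5-fold threshold. With 1 array a group, precision is limited by the number of arrays. Protein sequences were not used here.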

Additional observations from a re-analysis of the deposited data

How the results depend on the processing

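No paired analysis was possible because each group has 1 array. Of 384 values of single genes under the alternatives, 363 stayed within 1.5-fold of the reported ratio, 21 moved by more and 0 of the 2-fold ratios changed sign. Many of these values could not move. The floor at the 25th percentile left all of them unchanged, because the brightest probe sets lay above it. The means of probe sets left Insig1 and Mbtps1 unchanged, as each has 1 probe set. The 363 are thus not a measure of robustness. The mean over all probe sets, which averages in probe sets at the floor, moved the number of the 8 genes past 2-fold the most. It gave 1 in place of 3 for GFP FSH against GFP vehicle, 1 in place of 3 for FOXOA3 FSH against GFP FSH, 3 in place of 5 for FOXOA3-mDBD FSH against GFP FSH, 2 in place of 5 for FOXOA3 FSH against FOXOA3-mDBD FSH and 3 in place of 7 for FOXOA3-mDBD FSH against GFP vehicle. Over all genes this mean gave 555 higher and 795 lower, 865 and 572, 1069 and 1535, 1506 and 810, and 1092 and 1780. In the same order the reported numbers were 655 and 1063, 1105 and 695, 1221 and 1866, 1913 and 932, and 1280 and 2215. Measured genes numbered 9590 to 10098 with this mean and 9578 to 10092 before. With only probe sets whose mean signal was above the floor, an alternative chosen after seeing the data, the numbers of the 8 genes were 2, 2, 4, 5 and 6 in that order. Over all genes it gave 632 higher and 1004 lower, 1053 and 653, 1218 and 1780, 1810 and 904, and 1236 and 2115. Centring gave 3 in place of 5 for FOXOA3 FSH against FOXOA3-mDBD FSH, and the 1.5-fold threshold gave 1 (Sp1) in place of 0 for FOXOA3 FSH against GFP vehicle. Over all genes, centring gave 1315 higher and 1319 lower of 10092, in place of 1913 and 932. The 1.5-fold threshold gave 1258 higher and 1117 lower of 9904, in place of 527 and 397. Srebf1 had a signal of 285.3 on the mutant array, so a floor at the 75th percentile left its log2 ratio at 0.23 for FOXOA3 FSH against FOXOA3-mDBD FSH and at -0.66 for FOXOA3-mDBD FSH against GFP vehicle. Insig1 for FOXOA3 FSH against GFP FSH, and Srebf1 and Insig1 for FOXOA3-mDBD FSH against GFP FSH, stayed past 2-fold under the 8 alternatives that kept this threshold, as did Insig2 and Mbtps1 for FOXOA3-mDBD FSH against GFP vehicle. Probe sets near the floor, such as the dimmer ones of Nfya and Scap, limit what can be read beyond the brightest.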

Other observations

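The pair of levels seen for Nfya was looked for among the genes above the floor on all arrays. After the Nfya values were seen, genes were counted that lay within 1.5-fold for FOXOA3 FSH against GFP vehicle and for FOXOA3-mDBD FSH against GFP FSH but at least 2-fold apart between these pairs. Of 8113 genes, 113 (1.39%) were lower on the spike-high pair and 26 (0.320%) were higher. Nfya is among the lower ones because the count was built on its values, and no other of the 8 genes was in either group. Other pairings of the arrays were not counted. Eif4b read 3056.7 on FOXOA3 FSH, 980.1 on FOXOA3-mDBD FSH, 1061.7 on GFP FSH and 2881.2 on GFP vehicle, and the phosphatase Ppm1f read 777.6, 255.4, 248.7 and 707.0 in that order. The spike state, the hormone and the vectors cannot be told apart for these genes.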
